A study of Bos taurus with 79 samples.

Results

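The genes described here are 2 chemokines, CCL8 and CCL2, and 3 cytokines that sustain or activate lymphocytes, IL15, IL18 and TNFSF13B. Every probe set whose array annotation gives 1 of these symbols alone was taken, which gave 6 probe sets for 5 genes among 24016 probe sets and 9155 named genes. The annotation gives CCL8 the gene ID 281044, CCL2 281043, IL15 281248, IL18 281249 and TNFSF13B 504507. CCL2 was measured by a pair of probe sets, of which the 1 with the higher mean (3.66 against 3.51) stands for CCL2 unless the second is named, and each other gene by a single probe set.

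The samples are strips of endometrium, the inner lining of the uterus, from cross-bred beef heifers slaughtered 5, 7, 13 or 16 days into a cycle or a pregnancy, each hybridised to an array of its own, a bovine Affymetrix chip. On each day heifers were cyclic with normal progesterone (CN), cyclic with high progesterone (CH), pregnant with normal progesterone (PN) or pregnant with high progesterone (PH). All heifers had been estrous synchronised. The pregnant heifers had been inseminated and pregnancy was established, and the high progesterone groups carried a vaginal progesterone-releasing device from day 3 until slaughter. The 16 groups hold 5 arrays each, except CH of day 7 with 4, which makes 79 arrays in all. A strip of endometrium holds epithelium, stroma, vessels and resident immune cells together, so more transcript per cell and more cells of a type cannot be told apart here.

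CCL8 and CCL2, also called monocyte chemotactic proteins, are secreted proteins that draw monocytes and lymphocytes to a tissue through G protein-coupled receptors such as CCR2. Interleukin 15 keeps natural killer cells and memory T cells alive and signals through a receptor that shares the common gamma chain with interleukin 2. Interleukin 18 is stored as a precursor that caspase 1 cuts to the active cytokine, which with interleukin 12 drives interferon gamma production. TNFSF13B, known as BAFF, is a survival factor of B cells. In ruminants the elongating conceptus secretes interferon tau, a type I interferon, which acts on the endometrium and induces a large set of interferon-stimulated genes. In the current bovine gene table CCL8 and CCL2 lie on the same chromosome with 1 coding gene, CCL11, between them.

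Values are log2 intensities as deposited. The array medians ran from 4.71 to 5.12. The mean of 10 epithelial genes lay between 7.95 and 9.05 and that of 8 stromal genes between 11.37 and 12.29 on every array. These markers, and 7 of 7 trophoblast genes with mean levels under 3, went with the tissue label. The mean of 6 smooth muscle genes was over 10 on 3 arrays. These were PN 4 of day 5 (11.71), PH 5 of day 7 (11.36) and PH 4 of day 13 (12.64). On every other array it was at most 9.56, and muscle in the strips was not tested. The number of arrays limits the precision, and values near the bottom of a probe set's scale are compressed, so differences that start there may be understated. For TNFSF13B 65 of 79 arrays lay between 2.06 and 2.35, and for CCL8 40 of 79 arrays lay between 3.05 and 3.35. IL18 had no such bottom, with values from 5.80 to 10.11.

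A pair of arrays stood apart from their groups in immune genes and touch several results. The array CH 3 of day 5 exceeded the other 4 arrays of its group in 14 of 14 macrophage and monocyte genes, 13 of 16 T and natural killer cell genes and 7 of 7 B and plasma cell genes, against 14.8% of all probe sets. For interferon-stimulated genes it did so in 3 of 14. Its mean of these 14 genes was 7.57, against 8.33 on CH 1 and 5.27 to 5.90 on CH 2, CH 4 and CH 5. The array PH 5 of day 16 lay below the other 4 arrays of its group in 13 of 14 interferon-stimulated genes and 14 of 14 macrophage and monocyte genes, against 43.2% of all probe sets. Both arrays were kept, and values without them are given beside the results that they move most. Over all probe sets, 5 arrays lay far from their groups (SD of deviations from the group mean over 0.45). They were CH 3 of day 5, CN 5 and CH 3 of day 7, and PH 1 and PH 4 of day 13. PH 5 of day 16, at 0.40, was not among them. CH 3 of day 7 and PH 1 of day 13 were also the 2 arrays of narrow distribution (SD of values under 2.7).

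**Figure D1:**
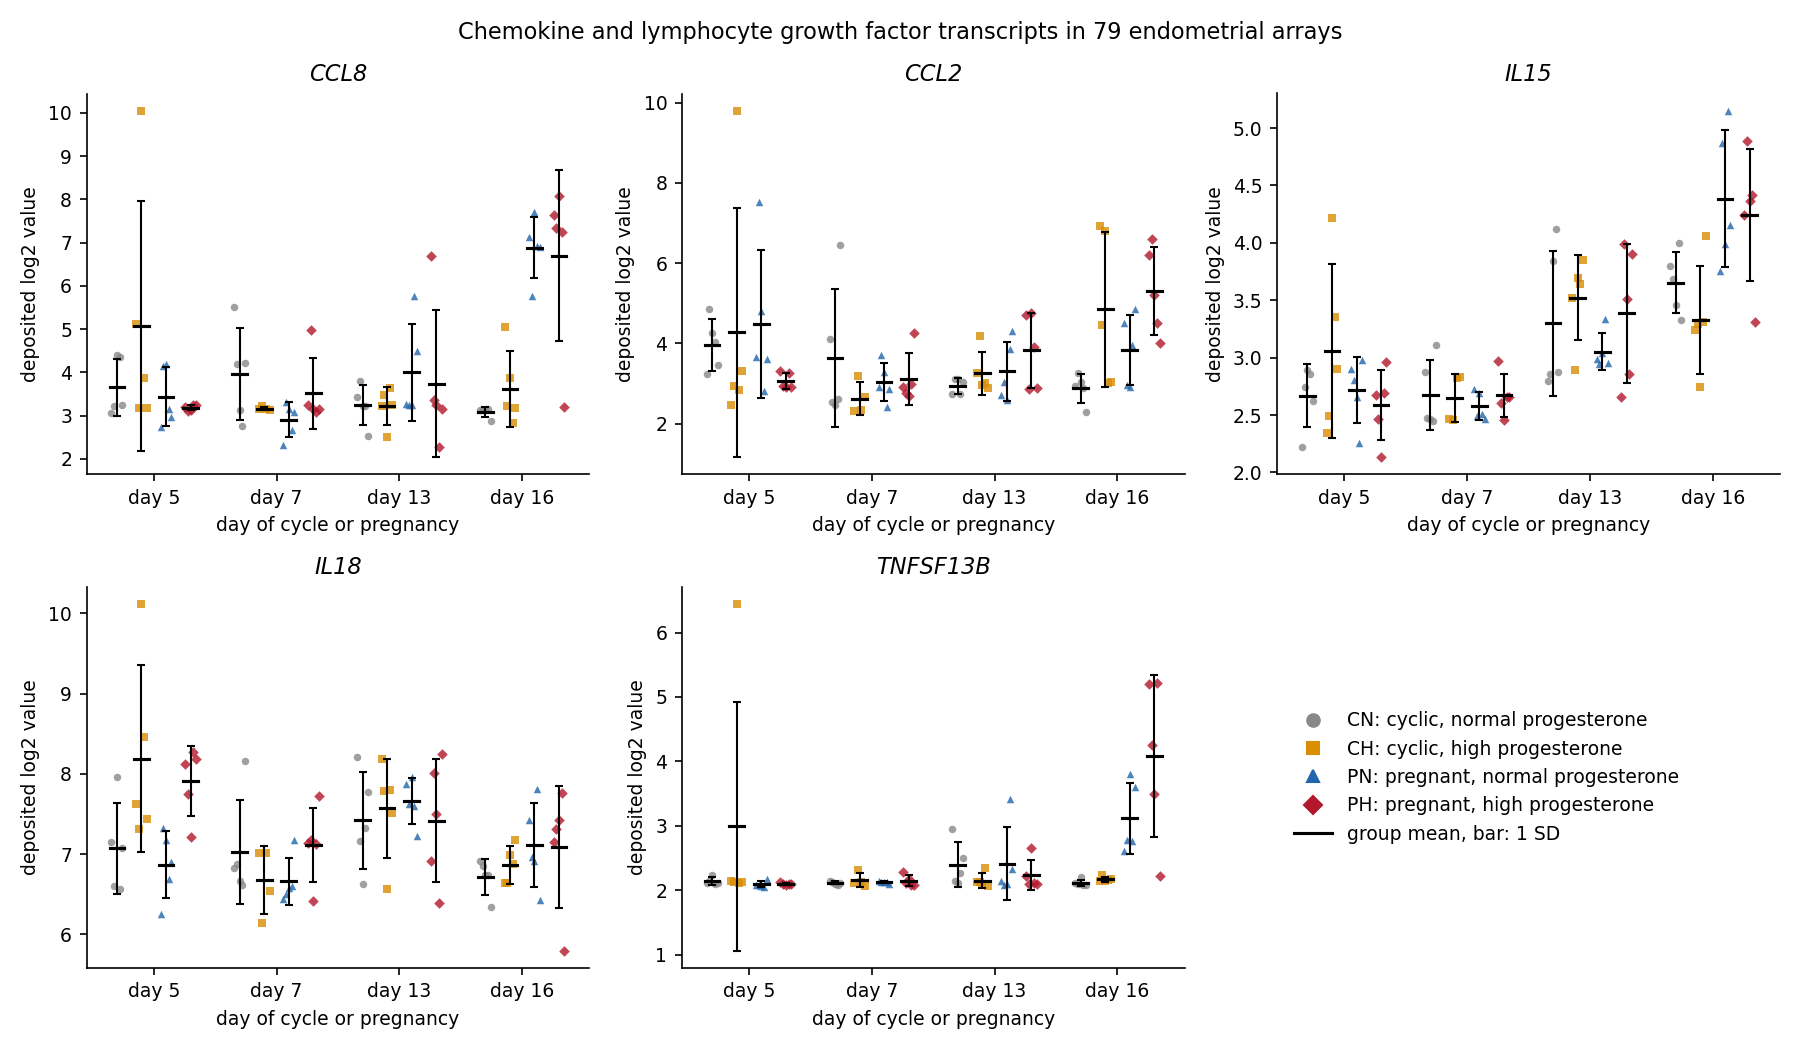
Deposited log2 value of each gene on every array, by day and group, with the group mean and a bar of 1 SD. On day 16, 9 of 10 pregnant arrays lie above all cyclic arrays for CCL8 and for TNFSF13B, and the array CH 3 of day 5 is the highest of all 79 for CCL8, CCL2, IL18 and TNFSF13B.

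CCL8 rose in the pregnant endometrium on day 16. Its values were 3.13, 3.13, 3.12, 3.15 and 2.86 in CN and 5.04, 3.21, 3.87, 2.82 and 3.17 in CH. They were 7.14, 5.77, 7.71, 6.92 and 6.89 in PN and 7.64, 7.33, 8.07, 7.24 and 3.21 in PH. All PN arrays and 4 of 5 PH arrays were above every cyclic array, and PH 5, at 3.21, lay among the cyclic values. The pregnant mean of 6.79 exceeded the cyclic mean of 3.35 by 3.44 ± 0.51 (log2 difference ± SE, n = 10 and 10, adjusted p = 1.05e-06). Here and below, adjusted p-values are from limma with Benjamini-Hochberg adjustment over all 24016 probe sets, and a difference was called when the adjusted p was under 0.05. The difference was 3.81 ± 0.72 with normal progesterone (adjusted p = 0.000573) and 3.08 ± 0.72 with high progesterone (adjusted p = 0.0031). The difference between these arms, -0.73 ± 1.02, was not called (adjusted p = 0.781). Without PH 5 the CCL8 difference was 3.88 ± 0.48 (adjusted p = 5.48e-09), 3.95 ± 0.70 with high progesterone alone, and the difference between the arms turned to 0.14 ± 0.96 (adjusted p = 0.965).

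On day 16 the pregnancy contrast called 3 of the 5 genes, CCL8, TNFSF13B and IL15, all higher in pregnancy, where 3.16% of all probe sets were called in either direction and 2.13% were called higher. On day 5 none of the 6 probe sets was called for pregnancy, 1 had an unadjusted limma p under 0.05, and 0.0167% of all probe sets were called. On days 7 and 13 none was called, none had an unadjusted p under 0.05, and 0% of all probe sets were called.

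Single arrays of the earlier days also had high CCL8 values. Apart from CH 3 of day 5, at 10.05, its 5 highest values before day 16 were 6.68 on PH 1 and 5.77 on PN 4 of day 13, 5.50 on CN 1 and 4.98 on PH 2 of day 7, and 5.11 on CH 1 of day 5. These 5 arrays also had the 5 highest means of the 14 interferon-stimulated genes among all arrays of days 5, 7 and 13, from 8.33 to 9.66. One of them, CN 1 of day 7, came from a cyclic heifer with normal progesterone and CH 1 of day 5 from a cyclic heifer with high progesterone. On day 16 the same mean was 5.89 ± 0.24 in cyclic heifers (SD, n = 10, range 5.43 to 6.22) and 10.31 ± 0.98 in pregnant heifers (SD, n = 10, range 8.36 to 11.64). PH 5 of day 16, the only pregnant array of that day without a raised CCL8 value, had the lowest interferon-stimulated mean of the pregnant arrays, at 8.36. That mean still lay within the 8.33 to 9.66 of the 5 earlier arrays, while its CCL8 value was 3.21.

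**Figure D2:**
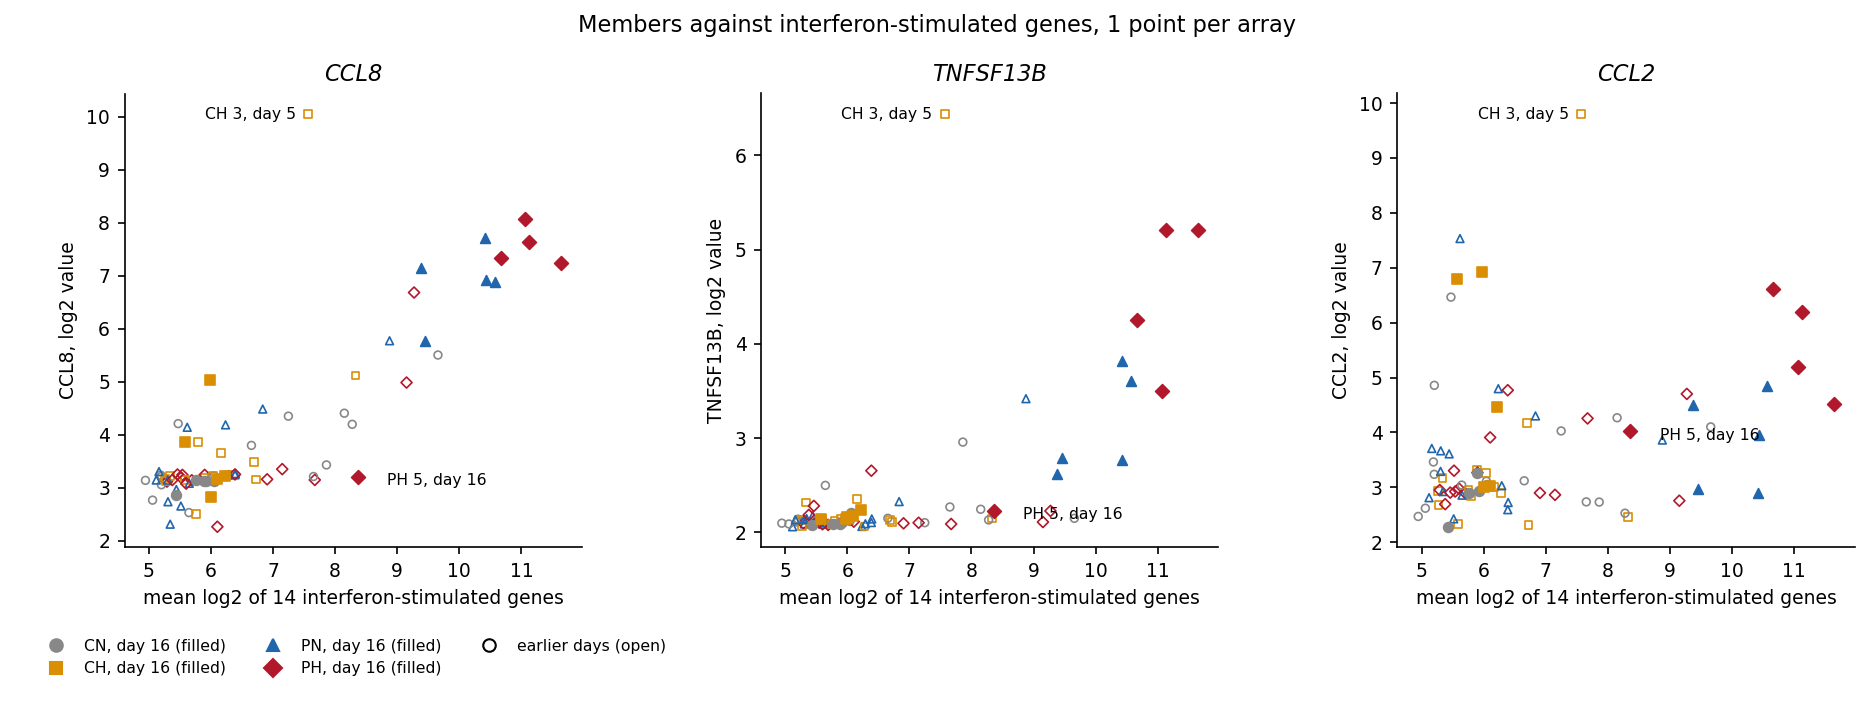
Log2 value of CCL8, TNFSF13B and CCL2 against the mean log2 of 14 interferon-stimulated genes, 1 point per array, with day 16 filled and earlier days open. Most arrays with CCL8 near or above 5 have high interferon-stimulated means, the exceptions being CH 3 of day 5 (CCL8 at 10.05, mean 7.57) and CH 1 of day 16 (CCL8 at 5.04), while CCL2 reaches 6.93 and 6.80 on CH arrays of day 16, a group whose means end at 6.22. High means also occur at lower CCL8. PH 5 of day 16 has a mean of 8.36 with CCL8 at 3.21. CN 3 of day 5 has a mean of 8.15 in a group whose CCL8 values end at 4.40.

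By group mean, CCL8 was highest in PN of day 16 (6.88 ± 0.70, SD, n = 5) and PH of day 16 (6.70 ± 1.98), which did not differ beyond their spread. CH of day 5 followed at 5.07 ± 2.89, a mean that rests on CH 3 at 10.05, with a group median of 3.86. The other 13 groups ran from 4.00 in PN of day 13 down to 2.90 in PN of day 7, with each step between neighbours smaller than the larger of their SDs. Within pregnant heifers with normal progesterone, CCL8 rose by 2.88 ± 0.72 from day 13 to day 16 (adjusted p = 0.016), with 4 of 5 day 16 arrays above all day 13 arrays. In that step CCL8 and IL15 were called, where 1.79% of all probe sets were called. Omitting PN 1, PN 2 or PN 3 of day 13 ended the CCL8 call, with an adjusted p of up to 0.0648. In cyclic heifers with normal progesterone the same step was -0.16 ± 0.72 and was not called (adjusted p = 1).

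TNFSF13B also rose in the pregnant endometrium on day 16, from a signal at the bottom of its scale. The cyclic values were 2.11, 2.09, 2.21, 2.09 and 2.08 in CN and 2.14, 2.24, 2.14, 2.16 and 2.17 in CH. The pregnant values were 2.62, 2.78, 3.81, 2.77 and 3.61 in PN and 5.20, 4.25, 3.50, 5.21 and 2.23 in PH. All pregnant arrays but PH 5 were above every cyclic array, so the groups overlapped by that array alone. The difference was 1.46 ± 0.28 (n = 10 and 10, adjusted p = 0.000196), and because the cyclic arrays were at the bottom of the scale it may be understated. Without PH 5 it was 1.69 ± 0.26 (adjusted p = 2.14e-06).

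The TNFSF13B difference was 1.91 ± 0.39 with high progesterone (adjusted p = 0.000606) and 1.00 ± 0.39 with normal progesterone, which was not called alone (adjusted p = 0.506) but was called without CH 3 of day 5, which enters only through the shared spread (adjusted p = 0.0235). The difference between the arms was 0.91 ± 0.55 and was not called (adjusted p = 0.505), with a 95% confidence interval from -0.20 to 2.01. Without PH 5 it was 1.37 ± 0.52 and was not called (adjusted p = 0.169). Without PH 5 the TNFSF13B difference between high and normal progesterone in pregnant heifers of day 16, 0.96 ± 0.39 over all arrays (adjusted p = 0.576), was 1.43 ± 0.38 and was called (adjusted p = 0.0483). No member was called for an interaction of pregnancy and progesterone on day 16, where 0.87% of all probe sets were called, and none had an unadjusted limma p under 0.05. On days 5, 7 and 13 no member was called for an interaction either, with none at an unadjusted p under 0.05, where 0%, 0.025% and 0.0208% of all probe sets were called.

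Before day 16, TNFSF13B left the bottom of its scale on few arrays. It was 6.44 on CH 3 of day 5 against 2.12 to 2.15 on the other CH arrays of that day. It was 3.42 on PN 4 of day 13, 2.96 on CN 1 of day 13 and 2.65 on PH 3 of day 13. Its 3 highest group means were 4.08 ± 1.26 in PH of day 16, 3.12 ± 0.55 in PN of day 16 and 2.99 ± 1.93 in CH of day 5 (SD, n = 5 each). The other 13 group means lay between 2.09 and 2.42. Without CH 3 the CH mean of day 5 was 2.13, and without PH 5 the PH mean of day 16 was 4.54 ± 0.83 (SD, n = 4).

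IL15 was higher in the pregnant endometrium on day 16 by a smaller step, and it was also higher on the later days in cyclic heifers by value. On day 16 it was 3.79, 3.69, 3.46, 4.00 and 3.33 in CN and 3.24, 3.29, 2.74, 3.31 and 4.06 in CH. It was 3.75, 4.87, 3.99, 5.15 and 4.15 in PN and 4.25, 4.88, 4.36, 4.41 and 3.31 in PH. Of the pregnant arrays 7 of 10 were above every cyclic array, and the groups overlapped. The difference was 0.82 ± 0.19 (adjusted p = 0.00395). A fit to the day 16 arrays alone gave the same difference with an adjusted p of 0.0696, and without PH 5 it was 0.94 ± 0.19 (adjusted p = 0.000353).

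Across days, IL15 rose by 1.33 ± 0.27 from day 13 to day 16 in PN (adjusted p = 0.00157). All 5 day 16 values, from 3.75 to 5.15, were above all 5 day 13 values, from 2.95 to 3.34; 1.84% of all probe sets separated in this way in this direction. From day 7 to day 13 the PN groups also separated, with day 13 higher by 0.48 ± 0.27, but the difference was not called (adjusted p = 0.262), in a step in which 7.86% of all probe sets separated in this direction. In CN the difference from day 7 to day 13 was 0.62 ± 0.27 (adjusted p = 0.112) and from day 13 to day 16 it was 0.36 ± 0.27 (adjusted p = 0.933). By day, the group means of IL15 on days 5 and 7 lay between 2.58 and 3.06, those on day 13 between 3.05 and 3.52, and those on day 16 between 3.33 in CH and 4.38 in PN. In the order of all 16 means, the steps from PH of day 16 (4.24) to CN of day 16 (3.65) and from PN of day 13 (3.05) to PN of day 5 (2.72) were larger than the SDs on either side, and no other step between neighbours was.

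**Figure D3:**
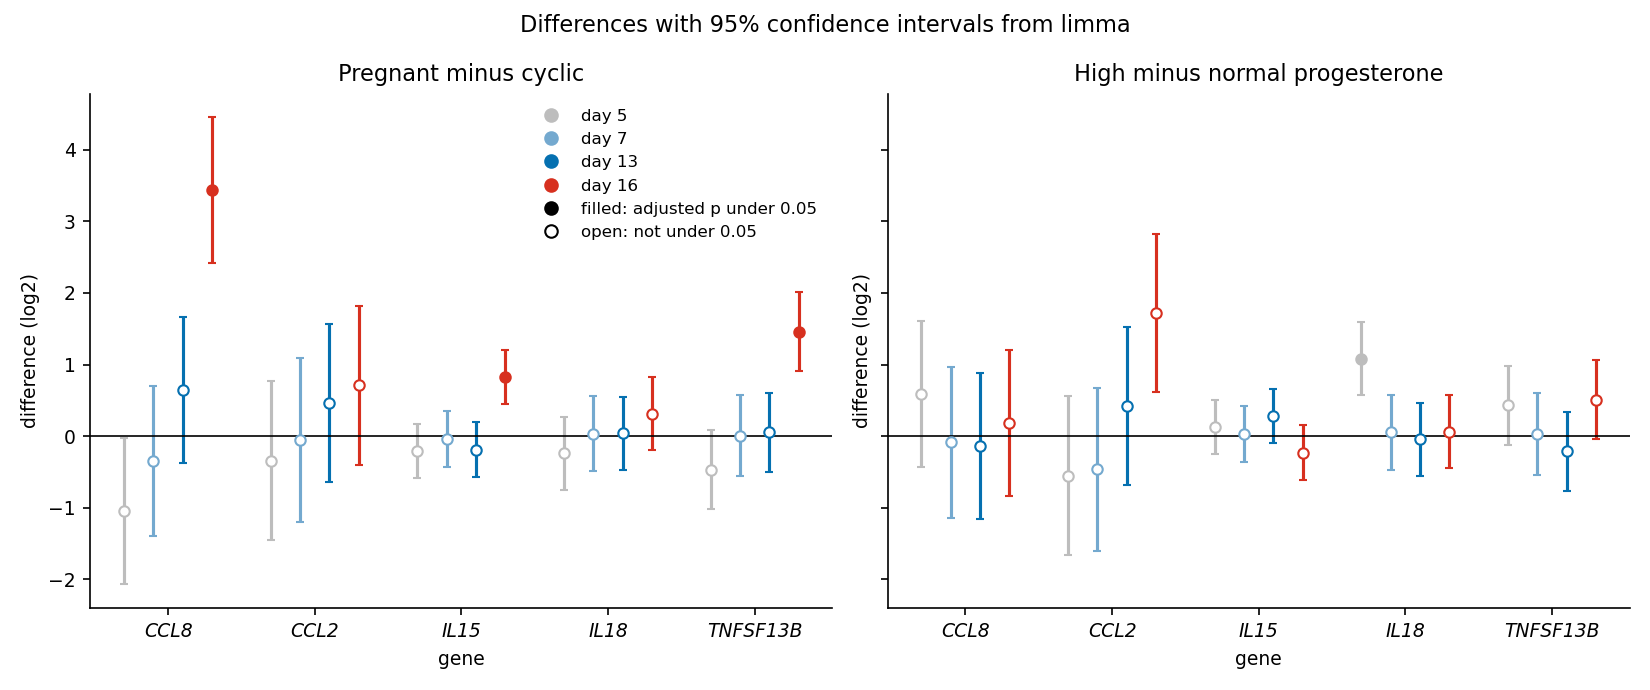
Differences between pregnant and cyclic heifers (left) and between high and normal progesterone (right) on each day, in log2 with 95% confidence intervals, filled where the adjusted p was under 0.05. For pregnancy the called differences are CCL8 at 3.44, TNFSF13B at 1.46 and IL15 at 0.82 on day 16, and for progesterone the called difference is IL18 at 1.08 on day 5.

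The growth of the pregnancy difference from day 13 to day 16 was tested directly. It was 2.80 ± 0.72 for CCL8 (adjusted p = 0.0303) and 1.01 ± 0.27 for IL15 (adjusted p = 0.0397), so 2 of the 5 genes were called, where 0.974% of all probe sets were called. For TNFSF13B it was 1.40 ± 0.39 and was not called (adjusted p = 0.0607). Without CH 3 of day 5, which enters only through the shared spread, the TNFSF13B value stayed at 1.40 and was called (adjusted p = 0.000163), and without PH 5 of day 16 it was 1.63 ± 0.36 and was called (adjusted p = 0.0038). Omitting single arrays ended the CCL8 call in 8 of 40 cases and the IL15 call in 24 of 40, and it gave TNFSF13B a call in 4 of 40. This contrast shares its day 16 arrays with the pregnancy contrast of day 16.

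CCL2 showed a different pattern from its neighbour CCL8 by value, with high arrays in several groups. On day 16 it was 2.93, 3.26, 3.04, 2.89 and 2.28 in CN and 6.93, 4.46, 6.80, 3.01 and 3.03 in CH. It was 4.50, 2.97, 2.90, 3.96 and 4.85 in PN and 6.20, 6.61, 5.20, 4.52 and 4.02 in PH. All 5 PH arrays and 3 of 5 CH arrays were above every CN array, and the PN values spread over both ranges. The pregnancy difference was 0.71 ± 0.56 and was not called (adjusted p = 0.7).

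The progesterone difference of CCL2 on day 16, 1.72 ± 0.56, was not called (adjusted p = 0.202), and 5 of 10 arrays with high progesterone were above all 10 with normal progesterone. Few probe sets passed in this contrast, 0.0958% of all. The second CCL2 probe set gave 1.18 ± 0.49 (adjusted p = 0.359), and no other member had an unadjusted limma p under 0.05. The CCL2 difference was 1.96 ± 0.79 in cyclic heifers (adjusted p = 0.156) and 1.47 ± 0.79 in pregnant heifers (adjusted p = 0.814). It was called under 3 alternatives, with array weights (1.71, adjusted p = 0.0024), without 2 arrays of narrow distribution (1.72, adjusted p = 0.0489) and without 5 arrays far from their groups (1.72, adjusted p = 0.0231).

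On the earlier days single arrays carried the high CCL2 values. CCL2 was 9.80 on CH 3 of day 5 against 2.47 to 3.32 on the other arrays of that group, 7.53 on PN 2 of day 5 and 6.46 on CN 5 of day 7. The second probe set read 9.44, 6.53 and 6.02 on these arrays, so the same arrays were high by both. By group mean CCL2 was highest in PH of day 16 (5.31 ± 1.09) and CH of day 16 (4.85 ± 1.94), then in PN of day 5 (4.48 ± 1.85) and CH of day 5 (4.27 ± 3.10, or 2.89 ± 0.35 without CH 3), and lowest in CH of day 7 (2.63 ± 0.40). These 4 highest means did not differ beyond their SDs.

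IL18 was the only member called for progesterone, on day 5. It was 7.15, 6.60, 7.97, 6.56 and 7.08 in CN and 6.25, 7.32, 7.18, 6.69 and 6.90 in PN. It was 7.62, 7.31, 10.11, 8.46 and 7.44 in CH and 8.13, 7.74, 7.22, 8.28 and 8.19 in PH. Of the arrays with high progesterone 5 of 10 were above every array with normal progesterone, and the groups overlapped. The difference was 1.08 ± 0.26 (n = 10 and 10, adjusted p = 0.0167), in a contrast that called 0.908% of all probe sets. Without CH 3 it was 0.84 ± 0.23 and was not called (adjusted p = 0.0688). It was 1.12 ± 0.36 in cyclic heifers and 1.04 ± 0.36 in pregnant heifers, with adjusted p-values of 0.275 and 0.337, and without CH 3 it was 0.64 ± 0.34 in cyclic heifers.

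Progesterone called no member on day 7, where 4.7% of all probe sets were called, nor on day 13, where 0.441% were, and on neither day did a member have an unadjusted limma p under 0.05. On day 7 the IL18 difference was 0.05 ± 0.26 (adjusted p = 0.94).

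Among 4 measured genes for the maturation of IL18, CASP1, whose product cuts the IL18 precursor, was the only 1 called for progesterone on day 5. CASP1 was 3.89, 3.56, 4.21, 4.06 and 4.01 in CN, 2.88, 3.58, 3.50, 3.37 and 3.83 in PN, 5.74, 3.79, 8.68, 4.15 and 5.22 in CH and 4.42, 3.45, 3.94, 4.31 and 4.83 in PH. The groups overlapped, and CH 3 was again the highest. The CASP1 difference was 1.17 ± 0.26 (adjusted p = 0.00869), and without CH 3 it was 0.77 ± 0.17 and was still called (adjusted p = 0.00981).

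**Figure D4:**
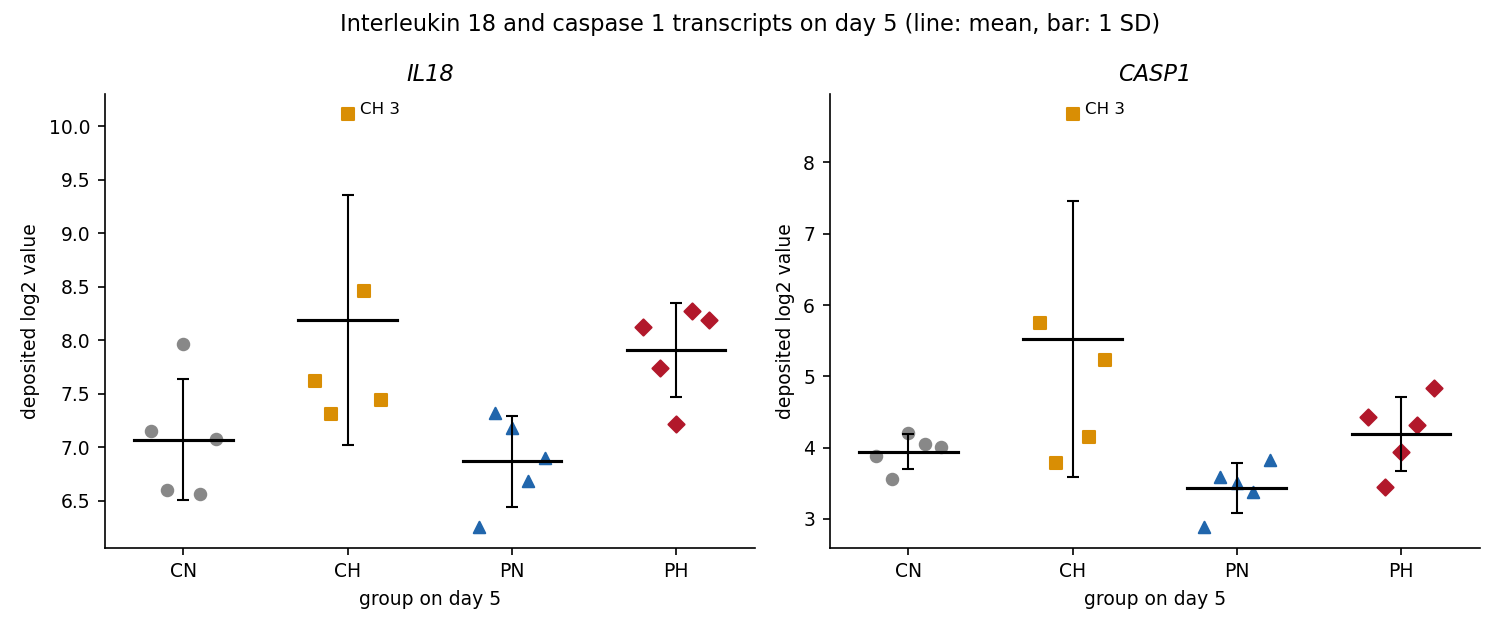
Log2 values of IL18 (left) and CASP1 (right) on day 5 in the 4 groups, with means and bars of 1 SD. CH and PH have the higher means for both genes, the groups overlap, and the array CH 3 is at 10.11 for IL18 and 8.68 for CASP1.

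The mean of 14 macrophage and monocyte genes on day 5 was 5.96 ± 0.41 in CN, 5.67 ± 0.40 in PN and 6.69 ± 1.43 in CH (SD, n = 5 each), and it ran from 5.72 to 6.14 over the PH arrays. CH 3 was at 9.13, and the other 4 CH arrays averaged 6.08 ± 0.49. None of these 14 genes was called by limma for progesterone on day 5, and 5 were higher at an unadjusted p under 0.05. Their median difference was 0.485, or 0.228 without CH 3, and their part in the IL18 difference was not tested.

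IL18 also differed between days in pregnant heifers with normal progesterone. All 5 PN values of day 13, 7.87, 7.62, 7.97, 7.60 and 7.23, were above all 5 of day 7, 6.44, 6.50, 6.58, 6.60 and 7.17. The rise was 1.00 ± 0.36 (adjusted p = 0.0421), in a step in which 18.4% of all probe sets were called and 7.86% separated in this direction. Omitting any 1 of 8 of these 10 arrays ended the call. With the replicate number as a block the value stayed at 1.00 with an adjusted p of 0.051. In CN the same step was 0.39 ± 0.36 (adjusted p = 0.621), with 16.2% of all probe sets called and no member among them.

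On day 16 IL18 was 6.34 to 6.92 in CN, 6.64 to 7.18 in CH, 6.43 to 7.81 in PN and 5.80 to 7.76 in PH, and the pregnancy difference of 0.31 ± 0.26 was not called (adjusted p = 0.731). The group means of IL18 were highest in CH of day 5 (8.19 ± 1.17) and PH of day 5 (7.91 ± 0.44) and lowest in PN of day 7 (6.66 ± 0.29), and no neighbours in this order differed beyond their SDs. From day 5 to day 7 no member was called in CN, where 0.0291% of all probe sets were called, or in PN, where 4.81% were, and none had an unadjusted limma p under 0.05. From day 13 to day 16 in CN no member was called either, where 0.666% of all probe sets were, and none had an unadjusted p under 0.05.

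Genes of the same pathways were mostly not called on day 16. Of 13 other CC and XC chemokines none was called for pregnancy, 1 had an unadjusted limma p under 0.05, and 10 had mean levels under 3. Of 13 CXC chemokines 1 rose, CXCL10, an interferon-induced attractant of activated T cells. CXCL10 was 4.53 to 5.71 in cyclic heifers, 8.25, 7.02, 6.25, 7.71 and 8.87 in PN and 11.04, 8.84, 9.76, 11.07 and 5.86 in PH, so all pregnant arrays were above all cyclic arrays, and PH 5 was again the lowest of its group. Its difference was 3.46 ± 0.59 (adjusted p = 2.54e-05). The median difference was -0.02 over the CC and XC list and -0.03 over the CXC list, beside -0.02 over all probe sets.

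On the receiving side, 1 of 6 measured receptors and decoys rose with pregnancy on day 16, ACKR4, an atypical receptor that binds chemokines without signalling (1.03 ± 0.26, adjusted p = 0.0121). ACKR4 had a mean level of 2.53. The other measured genes were CCR3, ACKR2 and IL18R1, with mean levels under 3, and ACKR1 and IL2RG. CCR2, IL15RA, IL2RB and the receptors of TNFSF13B were not measured. Of the 4 genes for IL18 maturation 1 rose, CASP4, an inflammatory caspase (1.89 ± 0.27, adjusted p = 4.44e-07). Of 23 other lymphocyte and myeloid growth factors and cytokines 1 rose, IL12A, by 0.27 ± 0.08 at a mean level of 2.27 (adjusted p = 0.0362), and 16 of the 23 had mean levels under 3.

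Of 16 measured signalling genes 3 rose and 1 fell. IRF7, a transcription factor that amplifies the interferon response, differed by 3.18 ± 0.32 (adjusted p = 2.33e-11). IRF9 and STAT2, partners in the factor that type I interferon activates, differed by 2.80 ± 0.40 and 1.49 ± 0.19. JAK1, a kinase of interferon and common gamma chain receptors, fell by 0.21 on the log2 scale (adjusted p = 0.0313). The median difference of these 16 genes was 0.01.

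For progesterone on day 5 the same lists gave CASP1 and, among the signalling genes, STAT6, a factor of interleukin 4 signalling (0.45 ± 0.12, adjusted p = 0.0461). The STAT6 call was lost without CH 3 (0.36 ± 0.12, adjusted p = 0.146). In the step from day 7 to day 13 in PN, where 18.4% of all probe sets were called, the counts of the 2 chemokine lists and of the signalling genes were near that background. In it 2 of 13 other CC and XC chemokines fell, CCL28 (fell by 1.12 on the log2 scale, at a mean level of 2.81) and CCL25 (fell by 0.81), both known for mucosal lymphocyte homing. Of the 13 CXC chemokines GRO1, a neutrophil attractant, rose by 2.29 ± 0.52, and CXCL17 fell by 0.31 at a mean level of 1.95, near the bottom of its scale. Of the signalling genes 3 rose, among them IRF9 (1.72 ± 0.56) and STAT6 (1.11 ± 0.17). In the step from day 13 to day 16 in PN no chemokine of either list was called by limma and 1 of the 13 CXC chemokines had an unadjusted p under 0.05, while CASP4 (1.53 ± 0.38), IRF7 (2.53 ± 0.46) and IRF9 (2.13 ± 0.56) rose.

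All 14 interferon-stimulated genes rose with pregnancy on day 16, with a median difference of 4.29. Of 14 macrophage and monocyte genes 3 rose, the complement genes C1QB (1.23 ± 0.31) and C1QC (1.41 ± 0.34) and the Fc receptor chain FCER1G (0.87 ± 0.26), and the median difference was 0.63. This count was 6 without CH 3 of day 5, where 3.36% of all probe sets were called. It was 5 without PH 5 of day 16, where 5.3% were called. Over all arrays, 7 of the 14 macrophage and monocyte genes were higher at an unadjusted limma p under 0.05. Their mean was 5.39 ± 0.37 in cyclic heifers (range 5.10 to 6.26) and 5.91 ± 0.40 in pregnant heifers (SD, n = 10 each, range 5.16 to 6.49).

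Of 16 T and natural killer cell genes none was called for pregnancy on day 16 and none had an unadjusted limma p under 0.05, and their mean was 3.40 ± 0.17 in cyclic and 3.41 ± 0.20 in pregnant heifers (SD, n = 10 each). Among them CD4, CD5, CD8B, NKG7, PRF1, KLRD1 and NCR1 had mean levels under 3, where differences may be understated. Of 7 B and plasma cell genes, 6 of them with mean levels under 3, none was called and none had an unadjusted limma p under 0.05. The same held for 7 trophoblast genes, all with mean levels under 3, whose mean ranged from 2.36 to 2.51 in cyclic and from 2.35 to 2.47 in pregnant heifers. Of 9 endothelial genes 3 fell with pregnancy on day 16, FLT1, PECAM1 and TIE1, and their mean was 6.22 ± 0.32 in cyclic and 5.96 ± 0.26 in pregnant heifers. Of 8 stromal genes the collagens COL1A2 and COL3A1 fell, and of 10 epithelial genes the tight junction gene CLDN4 rose. Of 6 smooth muscle genes none was called by limma and 2 were lower at an unadjusted p under 0.05, and their mean was 7.67 ± 0.55 in cyclic and 7.06 ± 0.58 in pregnant heifers (SD, n = 10 each). The part of these cell type markers in the CCL8, TNFSF13B and IL15 differences was not tested.

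**Figure D5:**
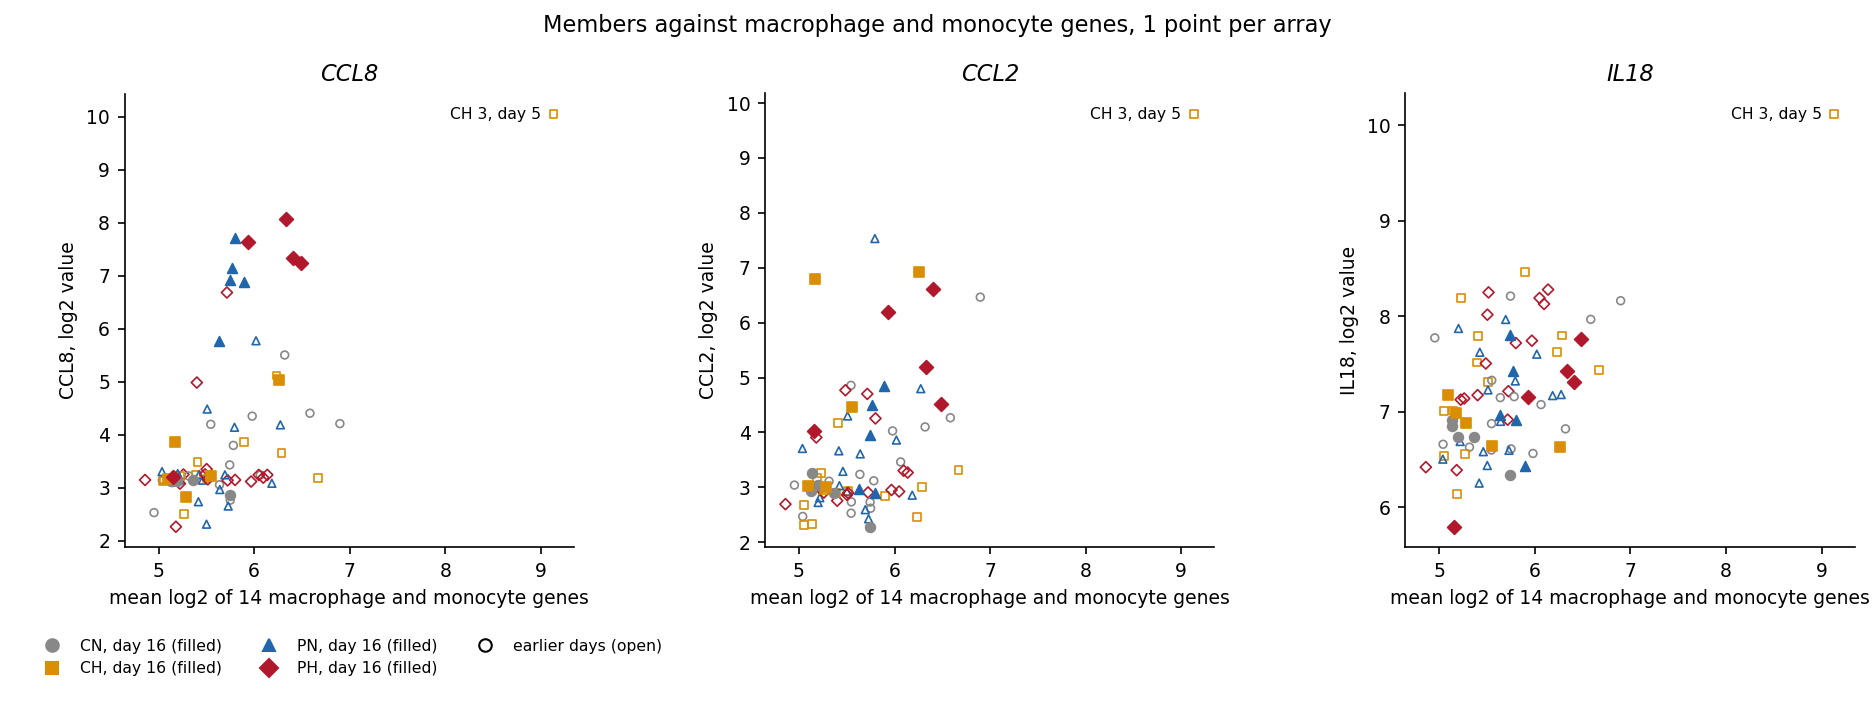
Log2 value of CCL8, CCL2 and IL18 against the mean log2 of 14 macrophage and monocyte genes, 1 point per array, with day 16 filled and earlier days open. On CH 3 of day 5 the macrophage mean is 9.13 and all 3 genes have their highest value of the 79 arrays, whereas the 9 pregnant arrays of day 16 with CCL8 of 5.77 or more have macrophage means between 5.63 and 6.49.

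Likeness to other genes was described by Pearson's r over the 79 arrays among 6794 genes with a mean of at least 4. Since the arrays share groups, these correlations mix differences between groups with differences between heifers, and no test was made. CCL8 was most like SAMD9 (r = 0.895), TIFA, PML, PLAC8B and IFI16 (r = 0.853), and its r was 0.866 with MX2 and 0.78 with ISG15, both interferon-stimulated genes. MX2, whose mean of 3.59 is under 4, was not among the 6794 genes ranked. TNFSF13B was most like GBP5 (r = 0.83), RNF19B, CXCL10, BOLA-DMB and CASP4 (r = 0.769). IL15 was most like PRSS8 (r = 0.836), DNASE2, SOAT1, MERTK and SYNRG (r = 0.802), with r = 0.548 for MX2. IL18 was most like SNX10 (r = 0.649), GSR, FCGR1A, TMEM156 and OSTF1 (r = 0.568), with r = 0.0946 for MX2.

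CCL2 was most like BCL2A1 (r = 0.681), AIF1, CORO1A, SRGN and BOLA-DRA (r = 0.653), which are expressed in leukocytes. Without CH 3 of day 5 the 5 genes most like CCL2 were MYC (r = 0.654), JUNB, NR4A1, RBM28 and FOS (r = 0.555). Immediate early genes such as JUNB, NR4A1 and FOS were among them. For CCL8, SAMD9 stayed first without that array (r = 0.914), for IL15, PRSS8 stayed first (r = 0.868), and for TNFSF13B, GTF2B came first (r = 0.877). For IL18 none of the 5 genes stayed, and HEBP2 (r = 0.55), TMCO1, CHMP2B, MANEA and UBE2W (r = 0.506) took their place.

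Relations between members within groups were tested on deviations from the group means over all 79 arrays, for 10 pairs, with permutation within groups (two-sided, 100000 resamples). CCL8 and CCL2 went together (r = 0.646, adjusted permutation p = 0.0016, and rho = 0.604, adjusted permutation p = 0.0001, which rests on the smallest p the permutations can give), with r = 0.48 without the 2 arrays farthest from the CCL8 median. CCL8 and TNFSF13B gave r = 0.71 (adjusted permutation p = 0.0104), rho = 0.378 (adjusted permutation p = 0.02) and r = 0.413 without the 2 farthest arrays. IL15 and IL18 gave r = 0.479 (adjusted permutation p = 0.00745), rho = 0.378 (adjusted permutation p = 0.02) and r = 0.334. For the other 7 pairs, 4 of them with an adjusted permutation p for r of 0.0326 or 0.0327 and 1 (CCL2 and TNFSF13B) with an adjusted permutation p for rho of 0.0377, r lay between 0.232 and 0.562 and fell to between -0.02 and 0.31 without the 2 farthest arrays, CH 3 of day 5 being 1 of them in every pair. Each omission left the group means as first computed, so it did not take out the pull of an omitted array on its group mean. With all CH arrays of day 5 left out, r was 0.46 for CCL8 and CCL2. It was then 0.487 for CCL8 and TNFSF13B and 0.344 for IL15 and IL18. For the other 7 pairs r then lay between -0.01 and 0.26.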

How the data were processed

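Endometrial RNA of 79 heifers was measured on a bovine Affymetrix array. The deposited values are log2 expression per probe set. The submitters' processing notes name RMA, GCRMA and limma without roles, so which of them made the values is not given in the sources used here. GCRMA and RMA treat background differently, which changes how values near the bottom of the scale are compressed. The labels give no scan date or other batch. 112 control probe sets were left out. A model of 16 group means was fitted to 24016 probe sets on all 79 arrays with limma 3.58.1 in R 4.3.3 (lmFit, contrasts, eBayes), with 63 residual degrees of freedom. P-values were adjusted by Benjamini-Hochberg within each of 19 contrasts, with a threshold of 0.05. ± marks an SE for a difference and an SD for a group mean.

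Symbols come from the platform annotation, in which 10638 probe sets are unnamed and 86 have several symbols. Of the single-symbol probe sets 13263 matched the current RefSeq gene table (ARS-UCD2.0) by gene ID, and no symbol changed. Where a gene had several probe sets, the brightest on average was used. Named list genes are the up to 4 called genes of largest difference per list for pregnancy on day 16, and up to 2 in other contrasts that called a member; individual marker genes and single arrays were chosen after their values were seen. The members and the lists were chosen with earlier results of these data known. Lists are described by counts and medians, without a test.

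In simulated data of the same size with 200 changed probe sets, the day 16 pregnancy fit recovered 93% of changes of 1 log2 unit and 99% of changes of 2 log2 units, with 11 false calls. The changed probe sets were drawn at random. The noise was normal, independent between probe sets and free of outlying arrays. These shares therefore do not hold for single probe sets of wide spread, such as CCL8 and CCL2, whose SEs in this contrast were 0.51 and 0.56. Replicate numbers name different heifers: deviations of same-numbered arrays correlated on average by 0.03, 0.05, 0.02 and -0.01 on days 5, 7, 13 and 16, so they were not used as pairs. No 2 arrays were duplicates (highest correlation 0.993). Alternatives covered the arrays in the fit, scaling, moderation, array weights, the block, single arms and omitted arrays. No sequences were used here.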

Additional observations from a re-analysis of the deposited data

Results flagged for a closer look

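The 5 genes were checked in each of the 16 groups, which gave 80 sets of 4 or 5 values, and 17 sets held an array far outside the rest. Chance gives about 1 in 20 for normally spread values, but the 80 sets share the same 79 arrays, and values piled at the bottom of a scale are not spread in that way. The array CH 3 of day 5 stood out for CCL8 (10.05, the others 3.17 to 5.11), CCL2 (9.80, the others 2.47 to 3.32) and TNFSF13B (6.44, the others 2.12 to 2.15). PN 4 of day 13 stood out for TNFSF13B (3.42) and, by a smaller step, for IL15 (3.34, the others 2.95 to 3.04). For CCL8, PH 1 of day 13 was at 6.68, PH 2 of day 7 at 4.98 and CN 5 of day 16 at 2.86, and PH 5 of day 16 was low at 3.21 against 7.24 to 8.07. CCL2 was 4.25 on PH 5 of day 7. IL18 was 8.16 on CN 5 and 7.17 on PN 5 of day 7. The remaining TNFSF13B values that stood out were 2.65 on PH 3 of day 13 and 4 small steps at the bottom of the scale: 2.35 on CH 4 of day 13, 2.24 on CN 3 and 2.18 on PN 5 of day 5, and 2.21 on CN 3 of day 16.

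The pregnancy difference differed between day 13 and day 16, by a direct test in limma, for CCL8 (2.80, adjusted p = 0.0303) and IL15 (1.01, adjusted p = 0.0397).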

How the results depend on the processing

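The pregnancy difference of CCL8 on day 16 was called under each of its 32 alternatives (3.08 to 3.88). IL15 on day 16 lost its call in a fit of that day alone (0.82, adjusted p = 0.0696) and with normal progesterone alone (0.73, adjusted p = 0.42), and TNFSF13B with normal progesterone alone (1.00, adjusted p = 0.506). The count of probe sets called there, 759, was 374 in the fit of that day alone, 3663 with array weights, 158 with normal and 1868 with high progesterone alone, and 488 to 1273 on omission of 1 array. IL18 on day 5 was not called in the fit of that day (1.08, adjusted p = 0.176), in cyclic (1.12) or pregnant heifers alone (1.04), or without CH 3 of day 5 (0.84), and single omissions gave 0.84 to 1.19. CCL2 for progesterone on day 16 became called with array weights (1.71) and without the narrow or the far arrays (1.72 each). Without 1 array, IL18 from day 7 to 13 in PN gave 0.92 to 1.13 and CCL8 from day 13 to 16 gave 2.68 to 3.32. The replicate block moved IL18 from day 7 to 13 to an adjusted p of 0.051 at 1.00 and changed no other call.

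For CCL8 the growth of the pregnancy difference lost its call with normal (3.04) or high progesterone alone (2.56) and without the 3 arrays rich in smooth muscle genes (2.61), with 2.61 to 3.23 on single omissions. For IL15 it lost its call in the fit of days 13 and 16 (1.01), in either arm (0.97 and 1.05), and without the narrow (0.92), far (0.80) or muscle-rich arrays (0.95), with 0.91 to 1.13 on single omissions. For TNFSF13B it became called in the fit of days 13 and 16 (1.40), with array weights (1.47), without the far arrays (1.38) and without CH 3 of day 5 (1.40), with 1.26 to 1.63 on single omissions, 4 of 40 of them called. The cause was not tested, except that a fit of the days concerned holds fewer arrays. A single arm compares fewer groups within the same fit of all arrays. A filter on probe sets above the median level left only IL18 of the members. Omission of CH 3 of day 5, and the list counts, arms and group means without PH 5 of day 16, were added after seeing the data. Of the other 82 member results that were not called, with 2318 alternative values, 1 became called, IL15 from day 7 to 13 in CN, under 2 alternatives (0.66 with array weights, 0.73 without the far arrays), and 151 values changed sign without being called. Low signal limits TNFSF13B most.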
